A study of Mus musculus with 6 samples.

Results

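Adipocyte genes were followed in messenger RNA of the mouse distal colon. The group was given as 10 gene symbols, and all 10 were found as rows of their own among the 23108 rows of the deposited table that carry a gene name. They are the hormone genes Adipoq, Cfd, Lep and Retn, the lipid droplet coat genes Plin1, Cidec and Plin4, the lipase gene Lipe, the fatty acid carrier gene Fabp4 and the transcription factor gene Pparg. The libraries came from male mice aged 8 weeks: 3 TNFR2-knockout (TNFR2-/-) animals and 3 wildtype animals, with C57Bl/6 given as the strain of both groups. TNFR2 is the second receptor for tumor necrosis factor, encoded by Tnfrsf1b, and the labels name no tissue-specific deletion and no treatment. Values are FPKM, fragments scaled to transcript length and to library size, so that levels of different genes can be compared per length.

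White adipocytes store triglyceride in a single large droplet. Pparg, with C/EBP factors, drives their differentiation, perilipins and Cidec coat and enlarge the droplet, and lipases release fatty acids from it. The same cells secrete adiponectin, adipsin and leptin, and in rodents also resistin. In the gut such cells lie in the serosal and mesenteric fat. Several members are not exclusive to fat: Pparg is a gene of colon epithelium, Fabp4 of capillary endothelium and macrophages, and Plin4 of skeletal muscle.

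Libraries were sequenced to 50M paired-end reads on average, 50 bp each. Depth relative to wildtype library 1, read from the steps of low FPKM values, was 1.02, 0.868 and 1.10 in the knockout libraries, and 1.02 and 0.735 in wildtype libraries 2 and 3. Tnfrsf1b averaged 1.07 ± 0.131 FPKM in knockout and 7.95 ± 0.398 FPKM in wildtype libraries (SD, n = 3 each), as the labels imply. Libraries differed widely in genes of skeletal muscle and skin. The median of 9 skeletal muscle genes was 16.0, 291 and 187 FPKM in knockout libraries 1, 2 and 3, and 1359, 416 and 479 FPKM in wildtype libraries 1, 2 and 3. For 12 skin keratinocyte genes the medians were 5.44, 48.5 and 68.8 FPKM in the knockout libraries, and 98.9, 37.2 and 102 FPKM in the wildtype libraries in the same order.

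Most adipocyte hormone and droplet genes had lower levels in the knockout libraries. Adipoq, Cfd, Cidec and Plin1 averaged between 27.7% and 35.8% of their wildtype level. Fabp4 averaged 52.8% of wildtype, Lipe 71.7%, Plin4 70.1% and Retn 65.1%, and Pparg 95.9%. In bulk tissue, fewer cells of a type and less RNA per cell cannot be told apart. All 10 members had a lower mean in the knockout libraries, and none passed the test over all genes. Over all 14564 tested genes the mean log2 level was lower in the knockout for 8353 and higher for 6211. In limma, with Benjamini-Hochberg adjustment over 14564 genes, 42 genes were called in all, 0.288% of those tested, and 15 of these were lower in the knockout, 0.103%. Of the 10 members 9 had the mean of at least 0.5 FPKM that was needed for testing, and 0 of these 9 were called. At an unadjusted p under 0.05, 6 of the 9 were lower, where 9.91% of all tested genes were, and 1 of the 6, Plin1, reached the minimum for testing only through its wildtype level. Marker lists of other cells differed in their shares at the same p. Some had like shares, with 6 of 6 macrophage genes, 5 of 7 fat progenitor and fibroblast genes and 4 of 7 endothelial genes, all lower in the knockout. Others had fewer, with 2 of 9 skeletal muscle genes and 0 of 12 skin keratinocyte, 0 of 8 sebaceous gland and 0 of 6 gut smooth muscle genes. In the surface colonocyte list it was 1 of 6, Aqp8, which was higher in the knockout. All 3 knockout values lay below all 3 wildtype values for 5 of the 10 members, Adipoq, Cfd, Cidec, Fabp4 and Lipe, where this held for 12.5% of all tested genes. The median log2 change of the 9 tested members was -0.72, and that of all tested genes was -0.03. Medians further below 0 were found for lists of other tissues, at -2.52 for 9 skeletal muscle, -1.22 for 12 skin keratinocyte, -1.05 for 8 sebaceous gland and -1.08 for 3 brown fat genes, with 0 called in each. A change of -0.5 or lower was found for 6 of the 9, and for 4.92% of all tested genes.

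**Figure D1:**
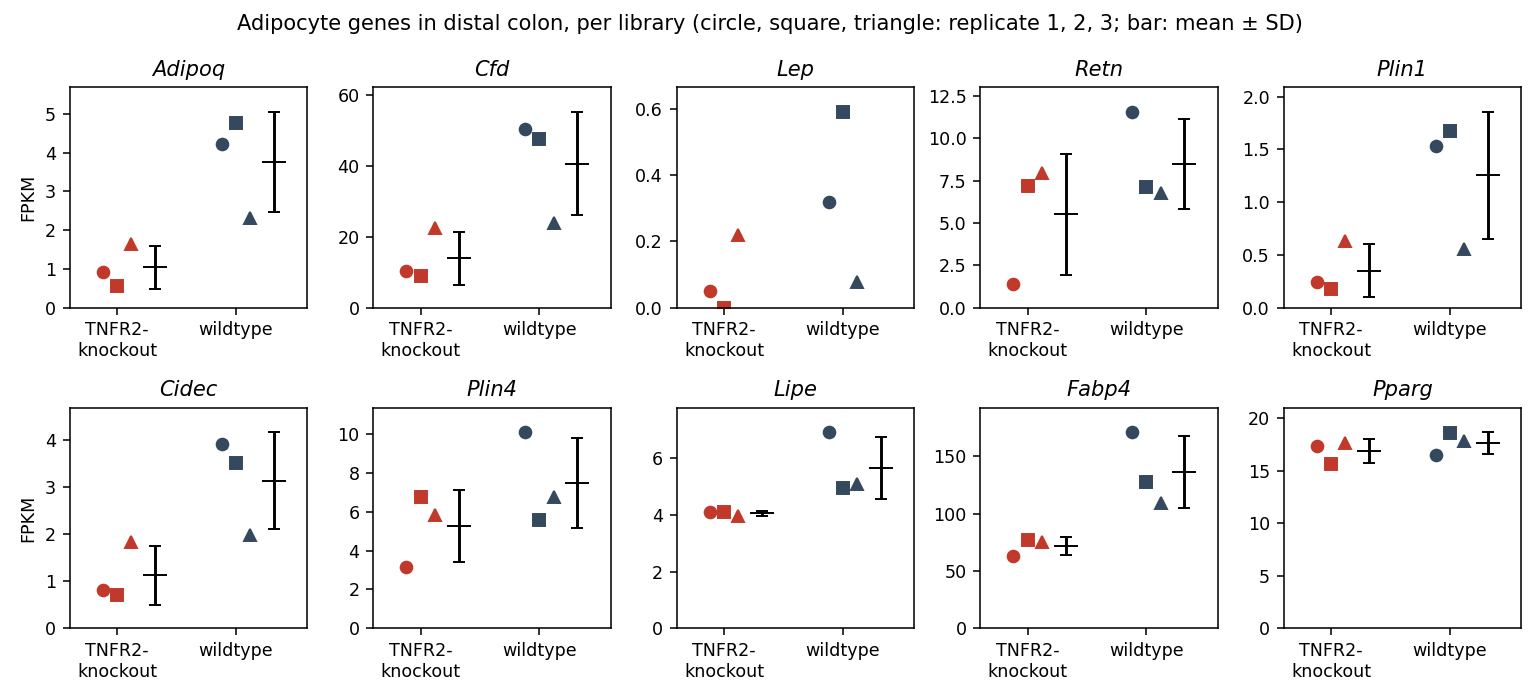
FPKM of each adipocyte gene (y axes, each from 0) in the 3 TNFR2-knockout libraries (red) and the 3 wildtype libraries (dark), with the mean ± SD beside the points except for Lep, which is listed at 0 in 1 library. Adipoq, Cfd and Cidec are lower in every knockout library than in every wildtype library, with knockout library 3 and wildtype library 3 close together, while Pparg lies between 15.6 and 18.5 FPKM throughout.

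The authors' deposited table gives Cuffdiff 2 tests of the same libraries. Of the 10 members 2 were called there at a q-value under 0.05, where 240 of 23108 named rows were called, 1.04%, of which 218 were lower in the knockout, 0.943%. Fabp4 is listed there with a log2 fold change of -0.90 and q = 0.0015, and Adipoq with -1.84 and q = 0.024, both in the authors' deposited table. Cidec (q = 0.12), Lep (q = 0.45) and Plin1 (q = 0.71) were not called in the authors' deposited table, although their log2 fold changes there were -1.45, -1.86 and -1.82. Cfd has a log2 fold change of -1.54 in the authors' deposited table beside a p-value of 0.945. Its row spans 672 kb and is 1 of 46 rows listed at this locus, whose p-values there run from 0.896 to 1. Lipe is likewise 1 of 5 rows at a locus of 187 kb and has p = 0.915 in the authors' deposited table. The part of these shared loci in the p-values was not tested.

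Adipoq encodes adiponectin, the most abundant hormone of fat, and lies on chromosome 16 (23146536 to 23158028, plus strand, GRCm38, the assembly of mm10). It measured 0.929, 0.562 and 1.64 FPKM in the knockout libraries and 4.23, 4.76 and 2.31 FPKM in the wildtype libraries. The groups did not overlap, but knockout library 3 stood nearer to wildtype library 3 than to the other knockout libraries. Its means were 1.04 ± 0.551 and 3.77 ± 1.29 FPKM in knockout and wildtype libraries (SD, n = 3 each). The log2 change of log2(FPKM + 1), a scale that understates the change of low genes, was -1.21 ± 0.27 (SE; limma, Benjamini-Hochberg adjusted p = 0.182).

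Cfd encodes adipsin, or complement factor D, a serine protease that fat secretes and that starts the alternative complement pathway (chromosome 10, 79890853 to 79892655, plus strand). With 10.4, 8.87 and 22.3 FPKM in the knockout libraries and 50.3, 47.6 and 23.8 FPKM in the wildtype libraries, it was the highest of the 4 hormone genes in every library. Knockout library 3 lay just below wildtype library 3, so the groups were separated by little. Its means were 13.9 ± 7.37 FPKM in knockout and 40.6 ± 14.6 FPKM in wildtype libraries (SD, n = 3 each), with a log2 change of -1.52 ± 0.46 (SE; limma, adjusted p = 0.269).

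Cidec, also called FSP27, fuses small lipid droplets into larger ones (chromosome 6, 113424634 to 113435760, minus strand). It measured 0.816, 0.712 and 1.83 FPKM in the knockout libraries, against 3.91, 3.51 and 1.97 FPKM in the wildtype libraries. Library order was the same as for Cfd from highest to lowest, and the log2 change was -0.97 ± 0.26 (SE; limma, adjusted p = 0.218). Plin1, perilipin 1, coats the droplet of white adipocytes and controls access of lipases to it (chromosome 7, 79720218 to 79732903, minus strand). It measured 0.242, 0.178 and 0.636 FPKM in the knockout libraries and 1.53, 1.67 and 0.561 FPKM in the wildtype libraries. Knockout library 3 lay above wildtype library 3, so the groups overlapped. The log2 change was -0.71 ± 0.23 (SE; limma, adjusted p = 0.259), and Plin1 reached the minimum for testing through its wildtype level, since its knockout mean was 0.352 FPKM.

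Lep encodes leptin, the hormone by which fat signals its stores to the brain (chromosome 6, 29060220 to 29073877, plus strand). It is listed at 0.0500, 0 and 0.219 FPKM in the knockout libraries and at 0.318, 0.590 and 0.0777 FPKM in the wildtype libraries. The groups overlapped, the lowest wildtype library again being library 3. With a mean under 0.5 FPKM it was not tested over all genes. Without that minimum its log2 change was -0.27 ± 0.15 (SE; limma, adjusted p = 0.437). The table does not tell an absent transcript from an estimate that failed.

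Ratios between the levels of Adipoq, Cfd, Cidec and Plin1 each spanned less than 2-fold across all 6 libraries. These 4 genes were grouped after their values were seen. Cfd varied 5.68-fold and Cidec 5.49-fold between the highest and the lowest library, yet the ratio of Cfd to Cidec FPKM ran only from 12.1 to 13.6, a span of 1.12-fold. Over the 6 pairs of these 4 genes the ratio spanned between 1.12-fold and 1.90-fold. Adipoq itself varied 8.47-fold and Plin1 9.38-fold. As a ratio to Adipoq, Cfd averaged 13.5 ± 2.28 in knockout and 10.7 ± 1.01 in wildtype libraries, and Plin1 0.322 ± 0.0633 and 0.319 ± 0.0656 (SD, n = 3 each). The ratio of Cidec to Adipoq averaged 1.09 ± 0.196 in knockout and 0.839 ± 0.0938 in wildtype libraries.

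Among the 14563 other tested genes, Cfd, Cidec and Plin1 were the only 3 whose ratio to Adipoq spanned less than 2-fold over the 6 libraries, 0.0206% of them. The median span was 8.33-fold. The limit of 2-fold was chosen after the values were seen. Set against Plin1 the same limit left Adipoq, Cfd and Cidec, and a limit of 3-fold left the same 3 genes. That wider limit left 8 genes against Adipoq, 25 against Cfd and 33 against Cidec, most of them in none of the fat lists. Set against Cfd or against Cidec the limit of 2-fold left the other 3 and Hp, haptoglobin, a hemoglobin-binding plasma protein made by liver and white fat. Hp measured 1.42, 1.89 and 4.17 FPKM in the knockout libraries and 5.85, 5.59 and 3.10 FPKM in the wildtype libraries. Knockout library 3 was the highest of its group and wildtype library 3 the lowest, and the groups overlapped. Hp was found by its ratios to Cfd and Cidec in these same libraries, so this likeness follows from the choice. The 4 genes share the 6 libraries, and the ratios are a description.

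**Figure D2:**
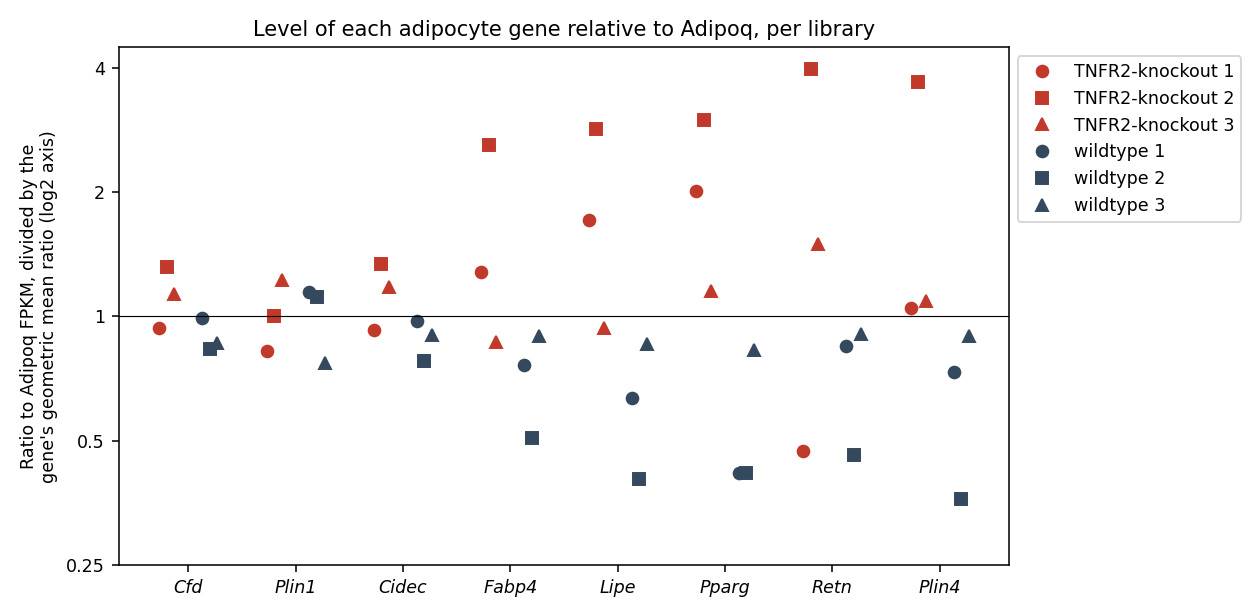
Ratio of each gene's FPKM to that of Adipoq in each library, divided by the gene's geometric mean ratio over the 6 libraries (y axis, log2 scale), with TNFR2-knockout libraries in red and wildtype libraries in dark. Lep is not drawn, since its ratio was 0 in knockout library 2, and it ran from 0.0337 to 0.133 in the others. Cfd, Plin1 and Cidec stay close to 1, with spans of 1.58-fold, 1.59-fold and 1.72-fold, while Fabp4, Lipe, Pparg, Retn and Plin4 spread between 5.13-fold and 10.2-fold.

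Promoter windows, 250 bases before and 50 after an annotated start, are shown for Adipoq, Cfd, Plin1, Cidec and Lep, from RefSeq on GRCm38.p6. Capitals mark the C/EBP core, TTGCNNAA on either strand, since C/EBP factors and Pparg are the classical activators of adipocyte genes. The windows are chr16:23146286-23146585 for Adipoq and chr10:79890603-79890902 for Cfd, both on the plus strand. Plin1 is shown at chr7:79732727-79733026 and Cidec at chr6:113434715-113435014, the inner of its 2 annotated starts, both on the minus strand. The window of the outer Cidec start, not printed, holds no C/EBP core. Lep is shown at chr6:29059971-29060270 on the plus strand.
Adipoq: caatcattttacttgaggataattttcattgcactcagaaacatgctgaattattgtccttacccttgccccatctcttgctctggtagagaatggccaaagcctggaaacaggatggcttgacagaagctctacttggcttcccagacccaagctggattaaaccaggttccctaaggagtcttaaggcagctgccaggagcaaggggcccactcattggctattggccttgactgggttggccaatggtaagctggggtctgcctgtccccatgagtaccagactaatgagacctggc
Cfd: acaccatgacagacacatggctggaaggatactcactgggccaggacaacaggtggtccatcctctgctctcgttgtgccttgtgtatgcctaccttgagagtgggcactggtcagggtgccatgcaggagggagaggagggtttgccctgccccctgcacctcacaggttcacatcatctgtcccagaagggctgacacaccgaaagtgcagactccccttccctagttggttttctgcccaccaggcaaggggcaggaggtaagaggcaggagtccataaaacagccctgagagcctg
Plin1: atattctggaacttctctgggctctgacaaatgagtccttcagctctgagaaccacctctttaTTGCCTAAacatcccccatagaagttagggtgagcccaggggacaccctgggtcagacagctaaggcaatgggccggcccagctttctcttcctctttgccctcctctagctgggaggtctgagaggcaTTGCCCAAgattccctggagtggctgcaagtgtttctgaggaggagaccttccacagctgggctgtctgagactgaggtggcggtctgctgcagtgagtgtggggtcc
Cidec: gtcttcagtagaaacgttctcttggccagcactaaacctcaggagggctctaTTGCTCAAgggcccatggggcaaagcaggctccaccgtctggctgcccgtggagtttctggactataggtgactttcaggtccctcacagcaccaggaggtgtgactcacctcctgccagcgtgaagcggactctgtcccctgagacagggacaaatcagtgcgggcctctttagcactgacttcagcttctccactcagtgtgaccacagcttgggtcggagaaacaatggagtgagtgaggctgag
Lep: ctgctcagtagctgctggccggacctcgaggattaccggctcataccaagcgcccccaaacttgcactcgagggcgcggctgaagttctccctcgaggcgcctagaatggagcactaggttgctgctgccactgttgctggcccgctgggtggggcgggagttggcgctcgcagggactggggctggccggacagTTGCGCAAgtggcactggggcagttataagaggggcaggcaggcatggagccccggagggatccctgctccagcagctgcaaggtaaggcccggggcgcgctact

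The 9 members with a promoter in the table had 13 windows, of which 4 held the C/EBP core, 1 each of Plin1, Cidec, Lep and Pparg, where 10.8% of all 32851 promoter windows held it. Counted from the start, it began at -187 and -58 in Plin1, at -198 from the inner start in Cidec and at -55 in Lep, where the 8 letters read the same on both strands. Pparg held 2 matches in the window of its innermost start. The direct repeat of AGGTCA with 1 base between, the type bound by PPAR with RXR, was searched on both strands with up to 2 mismatches. It was present in 0 of the 9 members' windows and in 3.86% of all windows. These counts describe the windows only. Fabp4 had no window in the table.

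Fabp4 and Lipe also had lower values in every knockout library, with smaller differences and without the close approach of the third libraries. Fabp4 encodes a fatty acid carrier of adipocytes, endothelium and macrophages (chromosome 3, 10204088 to 10208576, minus strand), and at 62.7, 77.2 and 75.3 FPKM in the knockout libraries and 171, 128 and 109 FPKM in the wildtype libraries it was the most highly expressed member. The gap between the highest knockout and the lowest wildtype library was wider than the range within the knockout libraries. It was narrower than the range within the wildtype libraries. Its means were 71.8 ± 7.86 and 136 ± 31.5 FPKM in knockout and wildtype libraries (SD, n = 3 each), a log2 change of -0.89 ± 0.17 (SE; limma, adjusted p = 0.151), the smallest adjusted p among the members. Lipe encodes hormone-sensitive lipase, which cleaves diglycerides during lipolysis (chromosome 7, 25379527 to 25398710, minus strand, with an antisense gene annotated at the same place). It measured 4.09, 4.10 and 3.96 FPKM in the knockout libraries and 6.91, 4.95 and 5.09 FPKM in the wildtype libraries. The knockout values were tightly grouped and wildtype library 1 was the highest, with a log2 change of -0.38 ± 0.12 (SE; limma, adjusted p = 0.246). Without wildtype library 1 the log2 change was -0.25 (limma, adjusted p = 0.555).

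Markers of other cells that use Fabp4 were lower as well. All 7 endothelial genes had lower means in the knockout libraries, with a median log2 change of -0.36, and all 6 macrophage genes, with a median of -0.43, and 0 genes of either list were called. Endothelial medians were 5.81, 7.74 and 5.30 FPKM in the knockout libraries and 9.55, 6.35 and 7.45 FPKM in the wildtype libraries, which overlapped. Summed FPKM of the list ranged from 45.8 to 60.6 in knockout and from 58.8 to 82.8 in wildtype libraries. Pecam1, an adhesion molecule of endothelial junctions, averaged 15.7 ± 2.18 FPKM in knockout and 23.1 ± 3.74 FPKM in wildtype libraries, and the junction gene Cldn5 14.1 ± 3.79 and 19.9 ± 5.33 FPKM (SD, n = 3 each). Macrophage medians were 16.2, 17.6 and 11.4 FPKM in the knockout libraries and 20.3, 19.8 and 21.6 FPKM in the wildtype libraries, which did not overlap. Summed FPKM of the macrophage genes ranged from 192 to 284 in knockout and from 343 to 391 in wildtype libraries. Lyz2 and C1qa, the highest of these, averaged 148 ± 32.4 and 61.0 ± 11.5 FPKM in knockout libraries, and 222 ± 21.1 and 81.1 ± 7.33 FPKM in wildtype libraries. The part of these cells in the Fabp4 difference was not tested. With the skeletal muscle list as a covariate, a fit added after seeing the data, the log2 change of Fabp4 was -0.54 and that of Lipe -0.25 (limma, adjusted p = 0.505 and 0.665). In the same fit Adipoq stood at -1.17, Cfd at -1.21, Retn at 0.68 and Plin4 at 0.31. That list itself differs between the genotypes, so the fit cannot separate muscle RNA from genotype.

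Pparg, the nuclear receptor that drives fat cell differentiation (chromosome 6, 115360951 to 115490399, plus strand), differed little between libraries. It measured 17.4, 15.6 and 17.7 FPKM in the knockout libraries and 16.5, 18.5 and 17.8 FPKM in the wildtype libraries. The groups overlapped, and the highest library had 1.19 times the level of the lowest. The log2 change was -0.06 (95% interval -0.24 to 0.12; limma, adjusted p = 0.722). Per length it exceeded Adipoq between 3.90-fold and 27.8-fold depending on the library. The surface colonocyte genes Car1 and Car4, carbonic anhydrases of the epithelium in which Pparg is also expressed, averaged 1354 ± 363 and 844 ± 146 FPKM in knockout libraries, against 1028 ± 174 and 770 ± 129 FPKM in wildtype libraries (SD, n = 3 each). None of the 6 genes of that list was called, and 5 had higher means in the knockout libraries. An antisense gene is annotated inside Pparg, and whether the libraries kept strand is not stated.

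Retn and Plin4 followed another order of libraries. Retn encodes resistin, a hormone of rodent white fat (chromosome 8, 3655770 to 3660110, plus strand). It had levels of 1.41, 7.19 and 7.95 FPKM in the knockout libraries and 11.6, 7.10 and 6.76 FPKM in the wildtype libraries. Knockout library 1 was far below the rest and wildtype library 1 above them, and in the other 4 both knockout values lay slightly above both wildtype values. The log2 change was -0.72 ± 0.59 (SE; limma, adjusted p = 0.576). Plin4, a perilipin of nascent droplets (chromosome 17, 56100591 to 56109803, minus strand, overlapping Hdgfl2 on the other strand), measured 3.17, 6.74 and 5.83 FPKM in the knockout libraries and 10.1, 5.59 and 6.75 FPKM in the wildtype libraries. Again library 1 was the lowest of the knockout and the highest of the wildtype group, and the log2 change was -0.45 ± 0.29 (SE; limma, adjusted p = 0.468). Without knockout library 1 alone, the log2 change was -0.11 for Retn and -0.19 for Plin4, and without wildtype library 1 alone it was -0.24 for Plin4. Without both libraries numbered 1, a choice made after seeing the data, the log2 changes were 0.11 for Retn and 0.024 for Plin4 (limma, adjusted p = 0.853 and 0.980). In that same fit Adipoq stood at -1.10 and Fabp4 at -0.63.

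Skeletal muscle, sebaceous gland and gut smooth muscle lists also had their extremes in the libraries numbered 1. Their medians were highest in wildtype library 1 and lowest in knockout library 1. The full order of libraries in Plin4 was that of the gland genes Krt79 and Scd3. It differed from that of the skeletal muscle genes Acta1 and Tnnc2, and Retn had neither order. As a percentage of the wildtype mean, the skeletal muscle list median was 2.14, 38.8 and 24.9 in the knockout libraries and 181, 55.4 and 63.7 in the wildtype libraries. For the sebaceous gland list it was 6.41, 80.2 and 59.8 in the knockout and 138.5, 37.6 and 124 in the wildtype libraries. The summed FPKM of Adipoq, Cfd, Cidec and Plin1 on the same scale was 25.5, 21.2 and 54.3 in the knockout libraries and 123, 118 and 58.8 in the wildtype libraries. Of the 9 skeletal muscle genes with a row all were detected in every library, and summed FPKM ranged from 148 to 1990 in knockout and from 2657 to 8634 in wildtype libraries. Summed FPKM of 12 skin keratinocyte genes ranged from 73.2 to 1076 and from 457 to 1257 in knockout and wildtype libraries, all 12 being detected in each. For 9 genes of the sebaceous gland, the lipid-producing gland of the hair follicle, the sums ranged from 7.41 to 71.1 FPKM in knockout and from 43.5 to 134 FPKM in wildtype libraries. Mc5r of that list was at 0 in knockout library 1. The most highly expressed genes of these lists overlapped between genotypes for skin (Lgals7, 135 ± 118 and 226 ± 108 FPKM in knockout and wildtype libraries; Krt10, 110 ± 97.3 and 164 ± 70.0 FPKM) and gland (Krt79, 15.7 ± 12.05 and 36.8 ± 17.4 FPKM; Scd3, 10.1 ± 7.18 and 20.5 ± 10.1 FPKM). Acta1, skeletal actin, averaged 275 ± 208 FPKM in knockout and 1060 ± 679 FPKM in wildtype libraries, and Tnnc2 293 ± 229 and 930 ± 623 FPKM, without overlap. All 6 gut smooth muscle genes had lower means in the knockout libraries, with a median log2 change of -0.18 and 0 called. Their highest, Actg2 and Des, averaged 1667 ± 310 and 907 ± 151 FPKM in knockout libraries, against 1859 ± 417 and 1098 ± 252 FPKM in wildtype libraries. The part of skin, sebaceous gland or muscle RNA in the adipocyte gene differences was not tested. The added muscle and skin covariate fits are descriptions only, and no fit used a sebaceous gland covariate.

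**Figure D3:**
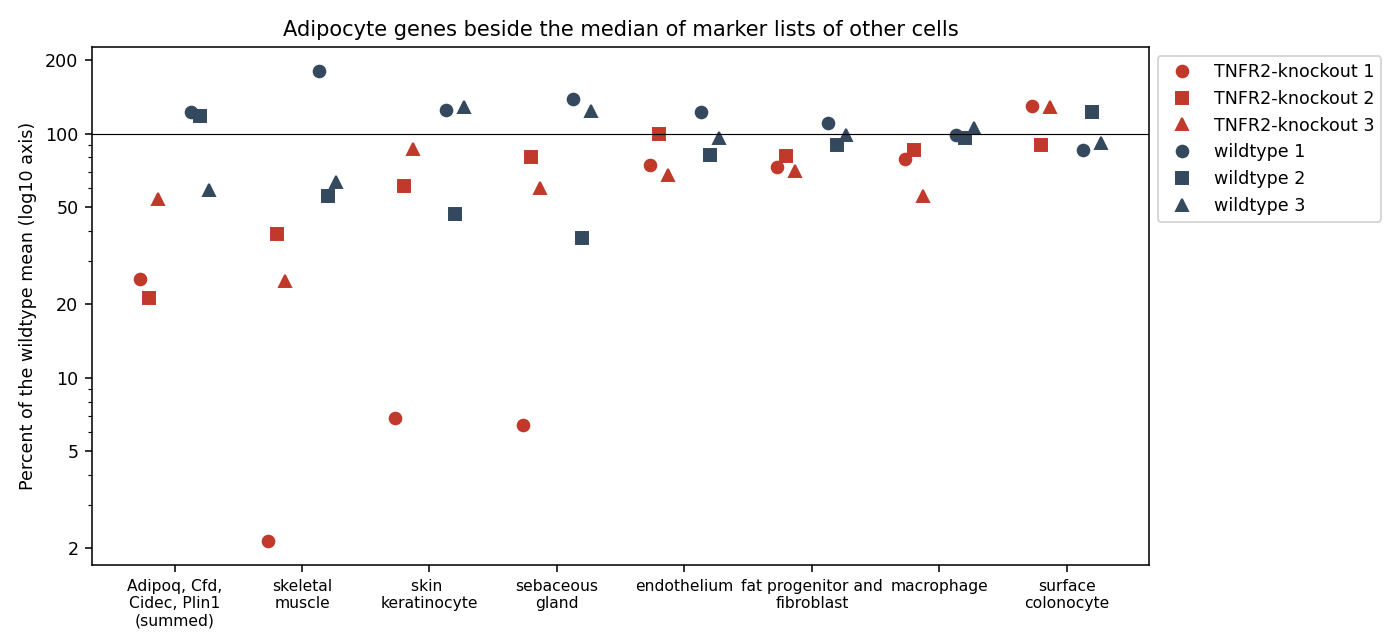
Summed FPKM of Adipoq, Cfd, Cidec and Plin1, and the median FPKM of marker lists of other cells, each as a percentage of its wildtype mean (y axis, log10 scale), with TNFR2-knockout libraries in red and wildtype libraries in dark. Cfd makes up most of the sum. Knockout library 1 is at 2.14% for skeletal muscle genes and 25.5% for the 4 adipocyte genes, and endothelial, fibroblast, macrophage and colonocyte lists stay between 55.7% and 129%.

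Mesothelial genes and Ucp1 were at or near 0. All 5 mesothelial genes, which would mark the outer lining of the gut and mesentery, averaged under 0.5 FPKM, with Upk1b at 0.402 ± 0.0536 FPKM in knockout and 0.456 ± 0.104 FPKM in wildtype libraries (SD, n = 3 each). Msln, the defining gene of the lining, averaged 0.0813 ± 0.0772 FPKM in knockout and 0.142 ± 0.0460 FPKM in wildtype libraries. Ucp1, the uncoupling protein that defines brown fat, is listed at 0 in all 6 libraries. Of the 6 brown fat genes 3 reached the minimum for testing, Cox7a1, Cox8b and Elovl3, and none was called. Cox8b, a muscle-type subunit of cytochrome oxidase, measured 9.22, 58.5 and 54.2 FPKM in the knockout libraries and 196, 57.3 and 69.1 FPKM in the wildtype libraries. Elovl3, which is also in the sebaceous gland list, averaged 5.44 ± 4.32 FPKM in knockout and 10.8 ± 5.89 FPKM in wildtype libraries. Cox7a1 averaged 220 ± 41.1 and 249 ± 42.2 FPKM.

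None of the widely expressed partners of the droplet genes was called. Of 10 tested genes of droplets and lipolysis, means in the knockout libraries were lower for 8 and higher for 2, with a median log2 change of -0.14. Plin2, the perilipin of most tissues, averaged 87.6 ± 3.52 FPKM in knockout and 76.6 ± 1.37 FPKM in wildtype libraries (SD, n = 3 each), each knockout value being above each wildtype value (limma, adjusted p = 0.271). Plin3 averaged 41.2 ± 4.99 and 41.8 ± 2.78 FPKM, and Pnpla2, the lipase that starts triglyceride breakdown, 47.2 ± 3.24 and 48.7 ± 2.94 FPKM. Per length, Plin2 exceeded Plin1 in every library, and their differences between the genotypes had opposite signs, neither past the threshold.

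Fatty acid uptake and fat synthesis genes had 17 lower and 4 higher means among 21 tested, with a median log2 change of -0.33, and 0 were called. Their most highly expressed genes were Acly, which makes cytosolic acetyl-CoA, at 111 ± 10.8 FPKM in knockout and 105 ± 9.40 FPKM in wildtype libraries, Scd1, a fatty acid desaturase, at 38.2 ± 14.8 and 60.5 ± 18.2 FPKM, and Agpat2 at 36.9 ± 7.68 and 35.8 ± 4.52 FPKM (SD, n = 3 each). An unadjusted p under 0.05 was found for 5 of the 21, 23.8%, where 16.2% of all tested genes had one, and the 5 are named here after their values were seen. Gpd1, which supplies glycerol phosphate, averaged 9.58 ± 0.529 FPKM in knockout and 19.7 ± 7.32 FPKM in wildtype libraries, and Cd36, a fatty acid transporter, 10.8 ± 1.78 and 17.9 ± 2.92 FPKM. Thrsp, a lipogenic gene, averaged 2.13 ± 0.238 and 3.87 ± 0.905 FPKM, and Acsl1, an acyl-CoA synthetase, 13.3 ± 1.30 and 17.0 ± 1.66 FPKM. Pck1, a gluconeogenic enzyme that also serves glycerol synthesis, stood in the other direction at 37.1 ± 4.69 FPKM in knockout and 24.02 ± 1.88 FPKM in wildtype libraries. Their limma adjusted p-values, by Benjamini-Hochberg, lay between 0.135 for Pck1 and 0.235 for Acsl1.

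Transcription factors and hormone receptors had median changes near that of all genes. Of 10 tested adipogenic factors 8 had lower and 2 higher means, with a median log2 change of -0.12. Srebf1, Cebpd and Cebpa, the highest of them, averaged 34.2 ± 1.91, 23.5 ± 5.93 and 20.8 ± 2.28 FPKM in knockout libraries, against 35.7 ± 3.39, 23.998 ± 2.42 and 22.7 ± 1.22 FPKM in wildtype libraries (SD, n = 3 each). Of 9 tested receptor genes 6 had lower and 3 higher means, with a median of -0.05. Among all 14564 tested genes 8353 were lower and 6211 higher. Adipor1 and Adipor2, the adiponectin receptors, averaged 121 ± 11.5 and 51.3 ± 2.28 FPKM in knockout libraries, and 122 ± 4.88 and 53.1 ± 3.18 FPKM in wildtype libraries. Cap1, a binding partner of resistin known from human cells, averaged 142 ± 9.30 and 149 ± 6.29 FPKM. None of the factors or receptors was called. The 95% intervals of the log2 change were -0.23 to 0.19 for Adipor1 and -0.22 to 0.12 for Adipor2 (limma).

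Other genes of white fat had lower means for 7 of 8 tested, with a median log2 change of -0.27 and 0 called. The highest was Car3, a carbonic anhydrase of fat and of skeletal muscle. It measured 15.1, 230 and 141 FPKM in the knockout libraries and 795, 269 and 304 FPKM in the wildtype libraries, the order of libraries of the muscle list. Sncg and Aoc3 averaged 17.1 ± 1.32 and 14.3 ± 2.53 FPKM in knockout libraries, against 21.0 ± 3.65 and 17.6 ± 3.22 FPKM in wildtype libraries (SD, n = 3 each). The fat progenitor and fibroblast list had lower means for 6 of 7 tested genes, with a median log2 change of -0.33 and 0 called. Dpt, a matrix protein of fibroblasts, averaged 155 ± 24.7 and 213 ± 42.5 FPKM in knockout and wildtype libraries, and Cd34 31.9 ± 6.05 and 45.6 ± 6.87 FPKM.

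**Figure D4:**
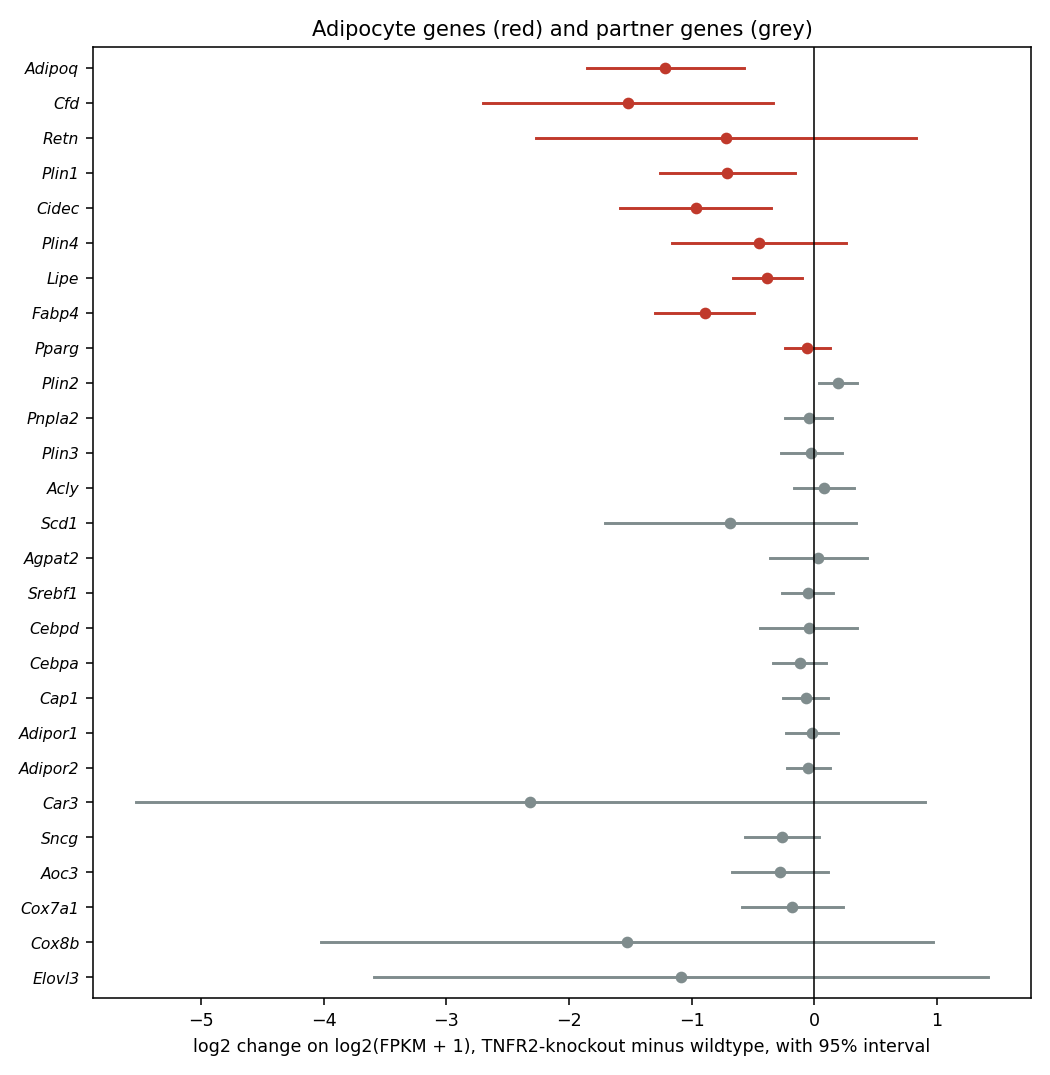
Log2 change of log2(FPKM + 1), TNFR2-knockout minus wildtype (x axis), with its 95% interval from limma, for the 9 tested adipocyte genes (red) and the 3 most highly expressed tested genes of each partner list (grey). Intervals of 6 red genes lie below 0 before adjustment over all genes, those of Pparg, Retn and Plin4 cross 0, and none passed the adjusted threshold.

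Genes most like the adipocyte genes were ranked by Pearson's r over the 6 libraries between log2(FPKM + 1) and the mean standardised level of the 9 tested members, as a description among 10757 other named genes averaging 2 FPKM or more. The 8 highest were Fam49b, Amd1, Tfeb, Cyp2e1, Eif3e, Acsl1, Emd and Smcr7, with r between 0.969 and 0.997. Only Cyp2e1 and Acsl1 of these were in the lists of fat genes. Cyp2e1, a cytochrome of liver and fat, had knockout values of 1.17, 1.55 and 2.05 FPKM, against 3.92, 3.21 and 2.01 FPKM in wildtype. Its knockout library 3 lay beside wildtype library 3. Cyp2e1 was picked by its likeness to the members in these same libraries, so this closeness follows from the choice. The other 6 and Acsl1 averaged between 77.7% and 96.9% of wildtype. Fam49b averaged 9.61 ± 0.255 FPKM in knockout and 10.3 ± 0.276 FPKM in wildtype libraries, and Eif3e 118 ± 1.88 and 122 ± 0.898 FPKM (SD, n = 3 each).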

How the data were processed

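Distal colon mRNA was sequenced. The authors' deposited table came from Tophat2/Bowtie2 alignment, Cufflinks assembly and Cuffdiff 2 testing, per the series' design text, with mm10 named in the submitters' processing notes. Tool releases, annotation, strandedness and library scaling are not stated. It holds FPKM per library and per group, a log2 fold change, p-values and q-values, per the file headers. Read totals are unknown from FPKM, so no counting interval was computed.

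Libraries were grouped by label; p-values measure the spread between 3 mice a group. The limma test (release 3.58.1, R 4.3.3) used log2 of FPKM plus 1, with trend and robust moderation and no covariate. It covered 14564 named rows averaging 0.5 FPKM or more, and genes with a Benjamini-Hochberg adjusted p under 0.05 count as called. Rows without a gene name, 6.13% of the table, were left out. Other steps ran in Python 3.11.15 with numpy 2.4.6, pandas 2.3.3 and matplotlib 3.10.9. Positions are from GENCODE on GRCm38 and promoters from RefSeq. Genes named from partner lists are the 3 highest tested ones, and from marker lists the 2 highest, unless said otherwise. Members and lists were chosen with earlier results of these data known. Alternatives were other pseudocounts, filters, scaling and moderation, a replicate block, single libraries left out and, added after seeing the data, both libraries numbered 1 left out and a muscle or skin covariate.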

Additional observations from a re-analysis of the deposited data

How the results depend on the processing

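Over 13 other settings none of the members was called, and all 117 fits of a member gave a lower value in the knockout. The replicate block, filter and moderation settings leave a tested member's log2 change as it was, so no sign could change there. With single libraries left out, all 54 fits of a member were lower. Adipoq ranged from -1.80 to -1.04, Cfd from -1.90 to -1.28, and Fabp4 from -1.04 to -0.72, with limma adjusted p-values of at least 0.131, 0.233 and 0.101. With a pseudocount of 0.1, Cidec stood at -1.46 and Plin1 at -1.59. The count of called genes fell to 24 with the replicate block, lay between 21 and 74 when single libraries were left out, and was 20 with the skeletal muscle and 27 with the skin covariate, against 42. With single libraries left out it was 21 without knockout library 3, 22 without wildtype library 3, 27 without wildtype library 1 and 74 without wildtype library 2. No member was called in the 3 added fits either. The labels do not say whether the numbers pair the animals. Deviations of same-numbered libraries from their group means had r = -0.375, -0.337 and 0.209 for numbers 1, 2 and 3. Differently numbered libraries reached r = 0.467, for knockout library 1 and wildtype library 2. With 3 libraries a group these values cannot decide on pairing. No member was called with or without the block. Retn and Plin4 turned positive in added fits: 0.11 and 0.024 without both libraries numbered 1, and 0.68 and 0.31 with the skeletal muscle covariate, which itself differs between the genotypes; the cause was not tested. With that covariate Fabp4 moved to -0.54, Lipe to -0.25 and the median of the members to -0.54, and with the skin covariate Retn stood at -0.088 and Plin4 at -0.14. Low values limit Lep and Plin1 most. Wildtype library 3, the shallowest by the depth estimate, was the lowest wildtype library for both, and also for Adipoq, Cfd, Cidec, Fabp4 and Retn. It was not the lowest for Lipe, Pparg and Plin4. The part of depth was not tested.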
